A study of Mus musculus with 16 samples.

Results

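Psap encodes prosaposin, and Gpr37 and Gpr37l1 encode a pair of G protein-coupled receptors for which it has been put forward as a ligand. Prosaposin is cut in lysosomes into saposins, which present sphingolipids to the enzymes that degrade them, and the uncut protein is also secreted. The receptors are related to the endothelin receptors and couple to Gi/o proteins, and whether prosaposin binds them directly has been debated. The genes were chosen by symbol as a ligand and its candidate receptors, and they are 3 of the 55487 genes listed for these libraries. On GRCm38, Psap lies at chr10:60277627-60302597 on the plus strand, Gpr37 at chr6:25665878-25690729 and Gpr37l1 at chr1:135160234-135167681, the receptors on the minus strand.

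Single cells were taken from the spinal cord of adult mice, 8 to 10 weeks old, that were uninjured (named Sham in the labels) or were killed 1 d, 7 d or 14 d after a C5 dorsal column lesion. WT mice were Ryk+/+,GFAPcreERT2 and Ryk cKO mice were Rykfl/fl,GFAPcreERT2, so the genotypes differ in the floxed alleles and share the Cre driver. There were 2 mice for each genotype and time point, each in a library of its own, with 536263 to 9008729 unique molecular identifiers (UMIs) in the mice used. A GFAP promoter drove Cre, so any effect of the genotype on other cell types would be indirect or would reflect Cre activity outside astrocytes, and these counts cannot tell such routes apart. Levels are given as CPM, the UMIs of a gene scaled to a common total over all genes, with cells pooled per mouse and cluster, for mice with at least 10 cells there.

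Several libraries stand apart. Replicate 2 of WT at 1 d holds 1 cell with 266 UMIs and was left out, so WT at 1 d rests on a lone mouse. In 4 libraries, replicate 1 of WT and of Ryk cKO at 1 d and at 7 d, the median cell had 414 to 548 UMIs, against 1040.5 to 3637 in the other 11. Those 4 also share cell barcodes, which cover 2.30 to 11.6% of their cells and at most 0.789% in any other library. For 6 mice, all replicate 2, the list of cells gives another condition than the sample titles, which were followed here. Results below are given with these libraries. Some of them were also tried without the 4 shallow libraries, without the shared barcodes or with the conditions of the cell list. For those, values that differ are given. Other results, such as Gpr37l1 in oligodendrocyte precursors or in neurons, were not tried in these ways. Replicate 1 of uninjured Ryk cKO had fewer than 10 cells in Clusters 5, 6, 8, 10 and 11, so uninjured Ryk cKO often rests on the other mouse alone.

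The clusters carry the names assigned in the study, and lists of marker genes were summed as a check on them. Most named clusters had their own type's list highest. In Cluster 2, named astrocytes, the oligodendrocyte list (17595 CPM) was above the astrocyte list (7800 CPM), so its values are not read as those of astrocytes. In Cluster 5 this varied by mouse. The oligodendrocyte list was the higher in uninjured replicate 2 of WT (14836 against 12090 CPM) and of Ryk cKO (18802 against 11480 CPM). The same held in WT 7 d replicate 2 and Ryk cKO 14 d replicate 2, and not in the other mice. Whether oligodendrocyte RNA adds to the values of Cluster 5 was not tested. Cluster 10, named microglia with Cluster 6, had 12088 CPM of microglial markers and 4010 CPM of immune-cell markers, and Cluster 6 had 18538 CPM of microglial markers.

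Psap was read in all 17 clusters. Its mean ± SD over mice was highest in Clusters 12 (2108 ± 1746 CPM), 10 (1971 ± 959.8 CPM), 6 (1513 ± 310.3 CPM) and 16 (1157 ± 1141 CPM), all microglial, immune or myeloid, and then in the astrocyte Clusters 5 (893 ± 209.5 CPM) and 7 (657 ± 135 CPM). Next came Clusters 13 (547 ± 105 CPM), 15 (449 ± 288 CPM), 2 (445 ± 182 CPM), 14 (443 ± 101 CPM), 8 (411 ± 92.9 CPM), 4 (397 ± 125 CPM), 11 (332 ± 131 CPM), 9 (325 ± 95.5 CPM) and the neurons of Cluster 3 (290.0 ± 143 CPM). Endothelial Cluster 1 (249.5 ± 39.2 CPM) and the red blood cells of Cluster 17 (156 ± 125 CPM) were lowest. Of the 16 steps between neighbours in this order, only that from Cluster 5 to Cluster 7 was larger than the larger of the SDs at its ends, so the rank of close neighbours is not resolved. The mean of Cluster 12 includes 1 mouse at 6900 CPM, and its median over mice (1602 CPM) was below that of Cluster 10 (1795 CPM). With thinned cells Cluster 12 was still first (2437 CPM, against 1927 CPM in Cluster 10), whereas without the 4 shallow libraries the order began with Clusters 10 (1755 CPM), 6 (1473 CPM) and 12 (1405 CPM), then 5 (854 CPM) and 7 (641 CPM). Cluster 16 stood at 405 CPM without them, below both astrocyte clusters, and at 384 CPM with thinned cells, so its place near the top rests on shallow libraries.

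Within mice the broad order of Psap was clear. Cluster 6 was above Cluster 5 in 14 of 14 mice, with a median log2 ratio of 0.76, and above Cluster 7 in 14 of 14, at 1.20. Cluster 5 was above Cluster 7 in 12 of 14 mice, at 0.50, and Cluster 7 was above the neurons of Cluster 3 in 15 of 15, at 1.09. Cluster 12 was above Cluster 10 in 7 of 10 mice, at 0.35. Clusters 10 and 6 differed less, with Cluster 10 higher in 10 of 14 mice at a median of 0.18. These are descriptions of clusters and were not tested.

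**Figure D1:**
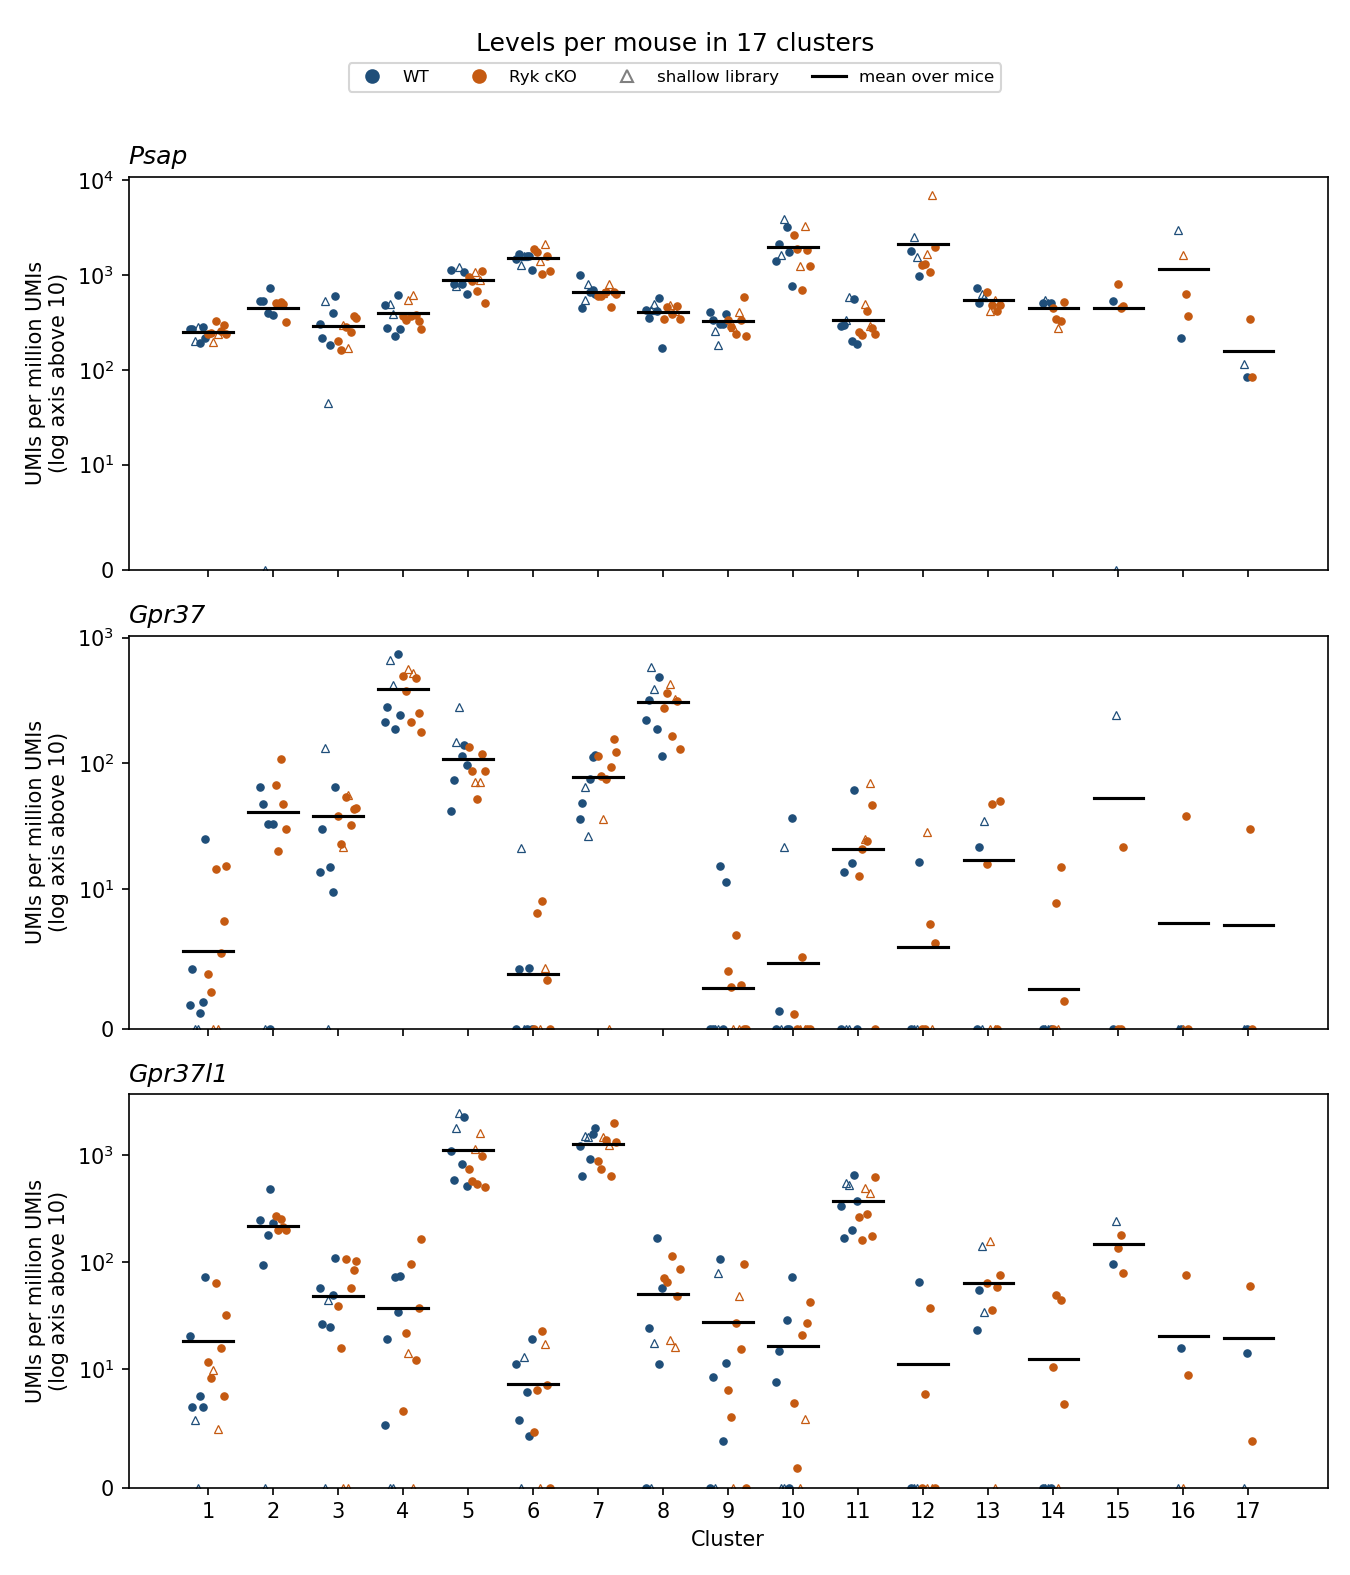
CPM (vertical axis, linear up to 10 and logarithmic above) of Psap, Gpr37 and Gpr37l1 in the 17 clusters (horizontal axis). Points are mice with at least 10 cells in the cluster, blue for WT and orange for Ryk cKO, open triangles are the 4 shallow libraries, and black lines are means over mice.

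Gpr37 was highest in the oligodendrocytes of Clusters 4 (388 ± 182 CPM) and 8 (306 ± 137 CPM). Astrocyte Clusters 5 (108 ± 59.4 CPM) and 7 (77.1 ± 42.8 CPM) followed, then Clusters 15 (53.0 ± 107 CPM, from 1 mouse at 243.5 CPM with a median of 0), 2 (41.1 ± 31.7 CPM), 3 (38.4 ± 31.8 CPM), 11 (20.7 ± 23.2 CPM) and 13 (16.9 ± 20.5 CPM). In Clusters 16, 17, 12, 1, 10, 6, 9 and 14 its mean ran from 7.56 down to 2.88 CPM. The step from Cluster 8 to Cluster 5 was the only one of 16 beyond the larger SD, and Cluster 4 was above Cluster 7 in 15 of 15 mice, with a median log2 ratio of 2.24. Without the 4 shallow libraries the first ranks were Clusters 4 (331 CPM), 8 (257 CPM), 5 (94.6 CPM) and 7 (93.6 CPM), and Cluster 15 stood at 5.36 CPM.

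Gpr37l1 was highest in astrocyte Clusters 7 (1267 ± 419 CPM) and 5 (1126 ± 669 CPM), which did not differ beyond their spread, with Cluster 7 higher in 9 of 14 mice. The oligodendrocyte precursors (OPC) of Cluster 11 (376 ± 176 CPM) came next, then Clusters 2 (217 ± 119 CPM), 15 (147 ± 66.8 CPM), 13 (64.4 ± 49.9 CPM), 8 (49.9 ± 48.6 CPM), 3 (47.7 ± 38.5 CPM) and 4 (37.3 ± 46.7 CPM). Clusters 9, 16, 17, 1, 10, 14, 12 and 6 had means from 27.5 down to 8.76 CPM. The steps from Cluster 5 to 11 and from Cluster 15 to 13 went beyond the larger SD, and no other of the 16 did. Cluster 7 was above Cluster 11 in 14 of 14 mice, at a median log2 ratio of 1.77, and Cluster 11 was above the oligodendrocytes of Cluster 4 in 14 of 14, at 3.49. Without the 4 shallow libraries Clusters 7 (1205 CPM), 5 (870.1 CPM) and 11 (324 CPM) kept these ranks.

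Capture and mapping may differ between the receptors, so their balance was compared across clusters and not between the genes. Gpr37 made up 92.9% of the UMIs of both receptors in Cluster 4 (95% interval 91.7 to 94.0%) and 85.5% in Cluster 8 (83.1 to 87.7%). It made up 10.7% in Cluster 5 (9.54 to 12.04%), 7.95% in Cluster 7 (7.17 to 8.79%) and 7.65% in Cluster 11 (5.61 to 10.1%). Neurons of Cluster 3 lay between, at 40.9% (37.1 to 44.7%), with a range over mice of 16.7 to 59.3% that meets those of Clusters 4 and 11. Among mice with at least 10 such UMIs the share ran from 51.9 to 100% in Cluster 4 and from 3.66 to 15.9% in Cluster 5, which do not meet, and from 0 to 20.9% in Cluster 11. These intervals cover counting error only.

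Shares of cells with a UMI follow depth as well as level, so each is given with the median UMIs per cell and with the share after cells were thinned to 1000 UMIs. Psap was seen in 75.9% of Cluster 10 cells (95% interval 72.8 to 78.8%, median 1119 UMIs, thinned 73.6%), 72.3% of Cluster 6 cells (69.8 to 74.7%, 780.5 UMIs, 73.2%), 63.1% of Cluster 7 cells (60.1 to 66.1%, 2882 UMIs, 40.7%) and 59.0% of Cluster 5 cells (56.7 to 61.4%, 1377 UMIs, 51.0%). Red blood cells of Cluster 17 had Psap in 28.6% of cells (20.7 to 37.6%, 1339 UMIs, 16.4%). That cluster also held 8102 CPM of myeloid markers, so this share is not a measure of background. Gpr37 was seen in 30.4% of Cluster 4 cells (28.2 to 32.6%, 1115 UMIs, 21.3%), against 0.988% in the microglia of Cluster 6 (0.527 to 1.68%, thinned 0.173%). Gpr37l1 was seen in 68.0% of Cluster 7 cells (65.0 to 70.9%, thinned 52.7%) and 51.9% of Cluster 5 cells (49.6 to 54.3%, thinned 38.5%). It was seen in 35.2% of Cluster 11 cells (31.5 to 39.0%, 1000 UMIs, thinned 22.3%), against 2.74% in Cluster 6 (1.92 to 3.77%, thinned 0.692%).

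Both receptors were seen in the same cell in 19.0% of Cluster 7 cells and 8.93% of Cluster 5 cells, and in 5.56% and 4.39% at 1000 UMIs. Psap and at least 1 receptor were seen together in 53.4% of Cluster 7 cells, 37.9% of Cluster 5 cells and 24.2% of Cluster 8 cells, and thinning left 25.9%, 25.3% and 13.8% in the same order. A cell without a UMI at these depths may still express the gene. No search for doublets was made here, and 2 cells in 1 droplet would also count as both genes in a cell.

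Some signal in a cluster may be RNA from other cells, and marker ratios bear on this without settling it. Per 1000 UMIs of oligodendrocyte markers, Gpr37 had 10.2 UMIs in Cluster 4 and 5.28 in Cluster 8, beside 6.47 in Cluster 5 and 43.3 in Cluster 7. The ratio in Cluster 7 was above that of either oligodendrocyte cluster, and the ratio in Cluster 5 lay between them. Per 1000 UMIs of astrocyte markers, Gpr37l1 had 80.5 UMIs in Cluster 7 and 48.7 in Cluster 5, beside 229 in the OPC of Cluster 11. It had 33.3 in the neurons of Cluster 3, 31.2 and 40.7 in the oligodendrocytes of Clusters 4 and 8 and 30.1 in endothelial Cluster 1. Whether RNA released by other cells adds to these values was not tested.

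The share of all Psap UMIs of a mouse that came from Clusters 6 and 10 was 37.7% on average over 15 mice, from cells that were 11.02% of the cells and gave 14.6% of all UMIs. It ran from 8.23 to 24.1% in uninjured mice, 16.7 to 33.6% at 1 d, 27.0 to 65.3% at 7 d and 45.0 to 67.1% at 14 d, so every 14 d mouse lay above every uninjured and 1 d mouse. That share follows the number of microglia captured as well as their Psap level. Clusters 2, 5 and 7 together gave 18.3% of Psap UMIs, oligodendrocytes 9.77%, endothelial cells 9.63% and neurons 7.69%. For Gpr37l1 Clusters 2, 5 and 7 gave 78.3% of UMIs (62.8 to 87.6% over mice), and for Gpr37 the oligodendrocytes gave 65.8% (20.2 to 92.6%).

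Across the means of the 17 clusters, 6503 genes could be compared with each of the 3. Those most like Psap were Ctsb (Pearson r 0.900), Ctsd (0.879), Ctsa (0.878), Hmox1 (0.864) and Cd300c2 (0.862). Those most like Gpr37 were Cmtm5 (0.941), 4933431E20Rik (0.933), Aplp1 (0.909), Syt11 (0.907) and Abca2 (0.906). For Gpr37l1 they were Agpat5 (0.959), Slitrk2 (0.948), Scg3 (0.947), Tlcd1 (0.934) and Bcan (0.932). Psap itself had r −0.186 with Gpr37 and −0.100 with Gpr37l1, and the receptors had 0.501 with each other. Likeness of profile over clusters says nothing of shared function.

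Changes with injury and genotype were tested on the pooled UMIs of each mouse with edgeR, with p adjusted over all genes of a comparison. Over 14 cell classes and 10 contrasts, 138 comparisons could be fitted, and 387 of 1087346 gene tests (0.0356%) had an adjusted p under 0.05. Psap had 138 of those tests, Gpr37 88 and Gpr37l1 128. None of these 354 passed in edgeR, with a lowest adjusted p of 0.108, and 34 (9.60%) had an unadjusted p under 0.05, 7 of Psap, 10 of Gpr37 and 17 of Gpr37l1, beside 4.56% of all gene tests. DESeq2, run on 38 of them, passed 0, with a lowest adjusted p of 0.0502. A p that misses the threshold does not show that values did not differ, and the intervals below give the changes these mice leave possible. The 1 d, 7 d and 14 d comparisons share the same uninjured mice and are not separate evidence.

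In microglia, taken as Clusters 6 and 10 together, Psap stood at 1595 and 1044 CPM in uninjured WT mice, 1139 CPM in the uninjured Ryk cKO mouse, 1399.9 CPM in the WT mouse at 1 d and 1364 and 864 CPM in Ryk cKO at 1 d. At 7 d it stood at 2462 and 2204 CPM in WT and 2627 and 1668 CPM in Ryk cKO, and at 14 d at 1444 and 1914 CPM in WT and 2341 and 1833 CPM in Ryk cKO. All 4 mice at 7 d and 3 of 4 at 14 d were above every uninjured mouse, and 0 of 3 were at 1 d. The fitted log2 change against uninjured mice was 0.45 over all injured mice (95% interval −0.21 to 1.11, edgeR adjusted p 0.653), −0.11 at 1 d (−0.92 to 0.69), 0.85 at 7 d (0.10 to 1.60, adjusted p 0.524) and 0.61 at 14 d (−0.13 to 1.35, adjusted p 0.579). Immune-cell markers in these cells stood at 736 to 1187 CPM in uninjured mice, 1456 to 4627 CPM at 7 d and 2234 to 3490.1 CPM at 14 d, so a change in which cells are counted cannot be told apart from a change within them. Less the median change of genes at 100 CPM or more, which was 0.13 at 7 d, these came to 0.38, −0.01, 0.72 and 0.48. Of 9268 genes tested in these cells edgeR called 12 after injury (0.129%), 23 at 1 d (0.248%), 10 at 7 d (0.108%) and 32 at 14 d (0.345%). Ryk cKO against WT after injury gave −0.05 for Psap (−0.62 to 0.52, edgeR adjusted p 1.0), with injured WT mice at 1399.9, 1914 and 2462 CPM (lowest, median, highest) and injured Ryk cKO mice at 864, 1751 and 2627 CPM. These ranges overlap. For that comparison edgeR called 0 of 9268 genes (0%) and DESeq2 called 0, with 346 at an unadjusted p under 0.05.

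In Cluster 10 alone Psap stood at 1751 and 768 CPM in uninjured WT mice, 1231 CPM in the uninjured Ryk cKO mouse, 1629.6 CPM in WT at 1 d and 1250.5 and 696 CPM in Ryk cKO at 1 d. At 7 d it stood at 3893 and 3172 CPM in WT and 3280.2 and 1839.9 CPM in Ryk cKO, and at 14 d at 1413 and 2121 CPM in WT and 2654 and 1902 CPM in Ryk cKO. All 4 mice at 7 d and 3 of 4 at 14 d lay above the uninjured mice, and at 1 d none of 3 did and 1 lay below. The log2 change was 0.84 over injured mice (95% interval 0.04 to 1.63, edgeR adjusted p 0.445), −0.07 at 1 d (−1.03 to 0.89), 1.56 at 7 d (0.66 to 2.45, adjusted p 0.108) and 1.03 at 14 d (0.15 to 1.90, adjusted p 0.261). Most genes shifted upward in this comparison, with a median over all genes of 1.02 over injured mice, 1.27 at 7 d and 1.33 at 14 d, and less the median of genes at 100 CPM or more, 0.48 over injured mice and 0.62 at 7 d, Psap came to 0.36, −0.35, 0.93 and 0.34 in the same order. Of 6788 genes edgeR called 37 after injury (0.545%), 10 at 1 d (0.147%), 48 at 7 d (0.707%) and 48 at 14 d (0.707%).

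The values of Psap in Cluster 10 depended on the processing. With DESeq2 the change was 0.53 over injured mice and 0.59 at 14 d. With no filter on low counts the 7 d value was 1.71 and passed, with an edgeR adjusted p of 0.0207. Without the 4 shallow libraries it was 1.27 (edgeR adjusted p 0.362), with the conditions of the cell list 1.34 (adjusted p 0.510), and with DESeq2 1.18, where the adjusted p was 0.0502. Over all alternatives that keep every other mouse the adjusted p ran from 0.0207 to 0.510. Leaving out mice in turn gave 1.26 without replicate 1 of Ryk cKO at 7 d to 1.78 without replicate 1 of uninjured WT. Cluster 10 cells at 7 d and 14 d also held 2909.6 to 9604 CPM of immune-cell markers, against 556 to 2854 CPM in uninjured mice and at 1 d, so a shift in which cells make up the cluster cannot be told apart from a change within cells. Ryk cKO against WT after injury gave −0.22 there (−0.87 to 0.43, edgeR adjusted p 0.952), with injured WT mice at 1413, 2121 and 3893 CPM and injured Ryk cKO mice at 696, 1871 and 3280.2 CPM, which overlap. In that comparison edgeR called 0 of 6788 genes (0%) and DESeq2 called 0, with 218 at an unadjusted p under 0.05.

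**Figure D2:**
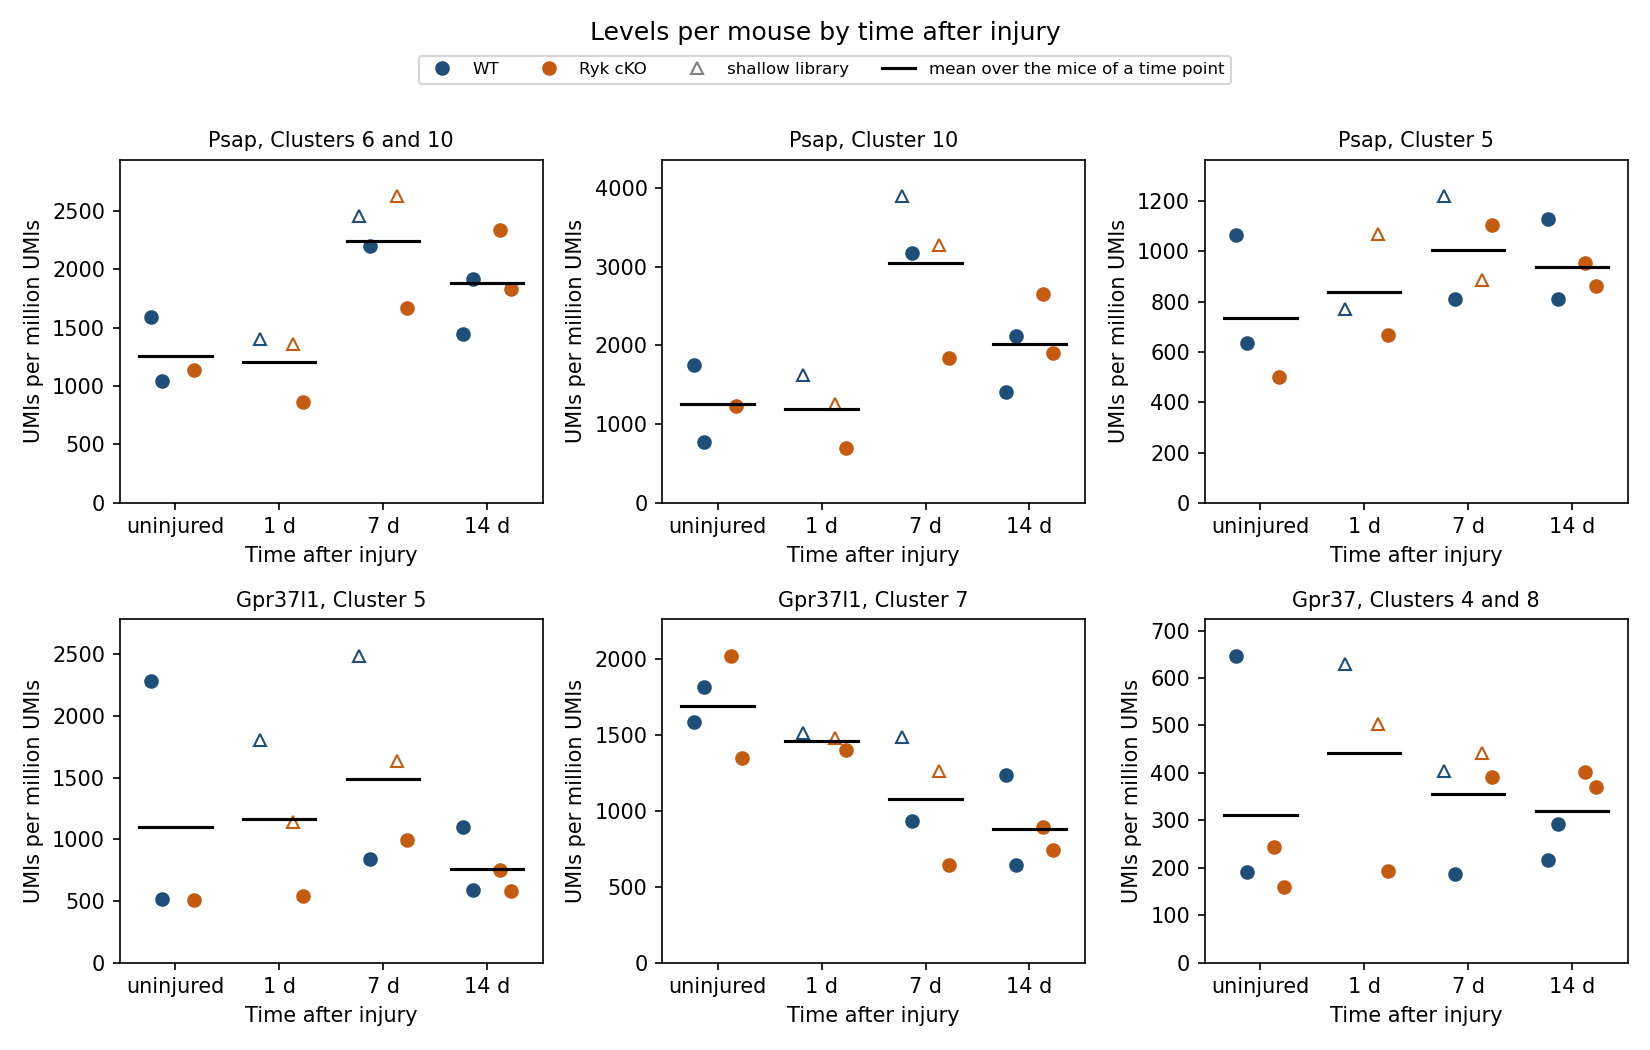
CPM (vertical axis) of Psap, Gpr37l1 and Gpr37 in the named clusters, in mice without injury and at each time after it (horizontal axis, days). Points are mice, blue for WT and orange for Ryk cKO, open triangles are the shallow libraries, and lines are means over the mice of a time point.

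In Cluster 5 astrocytes Psap stood at 1064 and 634 CPM in uninjured WT mice and 502 CPM in uninjured Ryk cKO. The uninjured mice at 634 and 502 CPM were those with more oligodendrocyte than astrocyte markers. Injured WT mice had 773, 813 and 1219.6 CPM as lowest, median and highest, and injured Ryk cKO mice 669.5, 921 and 1106 CPM. The ranges of the injured genotypes overlap between 773 and 1106 CPM. The log2 difference of Ryk cKO from WT after injury was 0.14 (95% interval −1.12 to 1.40, edgeR adjusted p 0.987), beside a median of 0.16 over genes at 100 CPM or more. With the conditions of the cell list this difference changed sign, to −0.11. By the sample titles the difference was −0.26 before injury, 0.38 at 1 d, 0.16 at 7 d and −0.11 at 14 d. Injury against no injury gave −0.19 (−1.54 to 1.16), or 0.14 less the median of genes at 100 CPM or more. Of the 11 injured mice 4 lay above all uninjured ones and 0 below, so the sign of the fitted value is not that of the mice. In Cluster 5 edgeR called 0 of 7929 genes after injury (0%) and 0 by genotype (0%), DESeq2 called 0 for each, and the unadjusted p was under 0.05 for 235 and 168 genes. Cluster 7 astrocytes gave −0.18 for injury and −0.03 for genotype.

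In neurons most injured mice had less Psap than the uninjured ones, although the test was not passed. Uninjured WT mice stood at 397 and 593 CPM and uninjured Ryk cKO mice at 366.5 and 349 CPM. Of the injured mice 10 of 11 lay below all of them, among them all 8 at 7 d and 14 d, at 44.6 to 304.5 CPM. The value of 44.6 CPM is of WT replicate 1 at 7 d, a shallow library, and rests on few UMIs. The injured mouse not below, WT at 1 d, had 528 CPM in the smallest pool, of 18 cells and 7570 UMIs. The log2 change was −1.13 (95% interval −1.77 to −0.48, edgeR adjusted p 0.205), or −0.90 less the median of genes at 100 CPM or more. Over all 10238 genes tested the median was −0.82, nearer to the Psap value, and at 1 d it was −2.98. By time Psap was −0.997 at 1 d, which is −0.36 less the median of genes at 100 CPM or more but above the median of all genes, −1.38 at 7 d (−2.17 to −0.58, edgeR adjusted p 0.302) and −1.01 at 14 d (−1.75 to −0.27, adjusted p 0.197). Over all injured mice edgeR called 1 of 10238 genes in neurons (0.00977%), with 913 at an unadjusted p under 0.05, and at 14 d it called 81 with 1340 at that p. Other markers in these cells moved too. Those of oligodendrocytes stood at 7096 to 13090 CPM in uninjured mice and 3831 to 11476 CPM in injured ones. Those of neurons ran from 3893 to 22798 CPM over all mice. In uninjured replicate 2 the oligodendrocyte list was above the neuronal list, at 12111 against 6392 CPM in WT and 13090 against 3893 CPM in Ryk cKO. The same held in Ryk cKO 7 d replicate 2 and 14 d replicate 1, and not in the other mice. A change in admixture thus cannot be told apart from a change in neurons. With the animal number series as a covariate the Psap value passed, at −1.24 with an edgeR adjusted p of 0.00025. It did not pass at 1000 UMIs per cell, where it was −0.32 with an edgeR adjusted p of 0.858, nor without the 4 shallow libraries, at −0.99 with 0.251, and over the alternatives with all mice the adjusted p reached 0.922.

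Gpr37l1 in Cluster 5 stood at 2282 and 512.5 CPM in uninjured WT mice and 508.5 CPM in uninjured Ryk cKO. At 1 d it stood at 1804 CPM in WT and 1142 and 543 CPM in Ryk cKO, at 7 d at 2486 and 839.5 CPM in WT and 1634 and 992 CPM in Ryk cKO, and at 14 d at 1100.5 and 591 CPM in WT and 751 and 581 CPM in Ryk cKO. The mice of a group lay as far apart as the groups did, and the injured genotypes overlap. The log2 change with injury was −0.25 (95% interval −1.63 to 1.13, edgeR adjusted p 1.0), or 0.08 less the median of genes at 100 CPM or more. The difference of Ryk cKO from WT after injury was −0.50 (−1.77 to 0.77, edgeR adjusted p 0.970), and by time −0.99 at 1 d, −0.14 at 7 d and −0.36 at 14 d. It came to −0.03 without the 4 shallow libraries. Oligodendrocyte markers in Cluster 5 ran from 1694 to 18802 CPM over mice and were low in the shallow libraries and in replicate 1 of uninjured WT, the mice with the most Gpr37l1, so a varying admixture cannot be told apart from a varying level.

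In Cluster 7 the spread was smaller. Gpr37l1 stood there at 1586 and 1818 CPM in uninjured WT mice and 2022 and 1347 CPM in uninjured Ryk cKO. At 1 d it stood at 1514 CPM in WT and 1479 and 1399 CPM in Ryk cKO, at 7 d at 1486 and 932.5 CPM in WT and 1262 and 641 CPM in Ryk cKO, and at 14 d at 1235 and 643 CPM in WT and 892 and 744 CPM in Ryk cKO. Below every uninjured mouse lay 0 of 3 mice at 1 d, 3 of 4 at 7 d and 4 of 4 at 14 d, and no injured mouse lay above all uninjured ones. The log2 change with injury was −0.75 (95% interval −1.20 to −0.31, edgeR adjusted p 0.210), −0.46 at 1 d, −0.88 at 7 d (−1.45 to −0.32, adjusted p 0.257) and −0.91 at 14 d (−1.46 to −0.37, adjusted p 0.228). Less the median of genes at 100 CPM or more these came to −0.70, −0.20, −0.93 and −1.04. Of 7966 genes edgeR called 18 after injury (0.226%) and 1 by genotype (0.0126%).

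Whether that Gpr37l1 value in Cluster 7 passed depended on the processing. It passed with cells thinned to 1000 UMIs, at −0.94 with an edgeR adjusted p of 0.0325, and with the animal number series as a covariate, at −0.74 with 0.0439. It did not pass with the replicate as a block, at −0.78 with an edgeR adjusted p of 0.0856, nor without the 4 shallow libraries, at −0.89 with 0.135, nor with DESeq2, at −0.70 with an adjusted p of 1.0, the highest of its alternatives. Leaving out each mouse in turn gave −0.65 to −0.86. Ryk cKO against WT after injury gave −0.17 (−0.67 to 0.34, edgeR adjusted p 0.902), with injured WT mice at 643, 1235 and 1514 CPM and injured Ryk cKO mice at 641, 1077 and 1479 CPM, which overlap.

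Gpr37l1 in OPC stood at 373 to 657 CPM in the 3 uninjured mice and at 159.8, 280.3 and 552 CPM (lowest, median, highest) in the 11 injured ones. Of the injured mice 7 lay below the uninjured ones. The log2 change was −0.95 (95% interval −1.87 to −0.04, edgeR adjusted p 0.860), and at 14 d −1.37. In neurons Gpr37l1 was −1.32 at 7 d (edgeR adjusted p 0.478) and −1.49 at 14 d (adjusted p 0.129). Over all injured mice it was −2.41 (edgeR adjusted p 0.324). That value is carried by 1 d, where WT replicate 1 and Ryk cKO replicate 1, shallow libraries, have 0 UMIs of it. At least 1 mouse at 7 d also had 0 UMIs of it in neurons. Falls were also fitted where its level was low. Over all injured mice Gpr37l1 was −2.76 in Cluster 4, −2.42 in Clusters 4 and 8 and −1.68 in endothelial cells. Gpr37 was −2.87 in endothelial cells. None of these passed. Lower Gpr37l1 is thus not particular to clusters where it was high, and the part of RNA from other cells was not tested.

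Gpr37 in the oligodendrocytes of Clusters 4 and 8 stood at 646 and 192 CPM in uninjured WT mice and 244 and 160.2 CPM in uninjured Ryk cKO. Injured WT mice had 187, 292 and 629 CPM as lowest, median and highest and injured Ryk cKO mice 193, 396.5 and 504 CPM. No injured mouse lay outside the uninjured range. Markers also varied among the uninjured mice. Astrocyte markers in these cells stood at 461 CPM in WT replicate 1, the mouse with 646 CPM of Gpr37, and at 1478 to 2645 CPM in the others. Oligodendrocyte markers stood at 25950 CPM in Ryk cKO replicate 1 and at 44647 to 52884 CPM in the others. Whether admixture adds to the differences in Gpr37 was not tested. The log2 change with injury was 0.15 (95% interval −0.59 to 0.90, edgeR adjusted p 0.975), with 0.49 at 1 d, 0.08 at 7 d and −0.10 at 14 d. Genotype gave 0.05 after injury (−0.71 to 0.81, edgeR adjusted p 1.0) and −1.20 in uninjured mice (−2.48 to 0.08), and the difference between these, tested as an interaction, was 1.25 (−0.24 to 2.74, edgeR adjusted p 1.0). With the replicate as a block, injury gave 0.13 and genotype after injury 0.12, and without the 4 shallow libraries genotype after injury gave 0.80. The injury value changed sign without those libraries, to −0.29, with the conditions of the cell list, to −0.31, and with thinned cells, to −0.70. In these cells edgeR called 0 of 8624 genes after injury (0%) and 0 by genotype (0%), against 2 and 0 with DESeq2, and 553 and 189 had an unadjusted p under 0.05.

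Gpr37 in Cluster 7 stood at 113 to 157 CPM in the 4 uninjured mice and at 0, 64.4 and 114 CPM (lowest, median, highest) in the 11 injured ones, 10 of which lay below the uninjured range. The log2 change was −0.94 (95% interval −1.58 to −0.31, edgeR adjusted p 0.340). Leaving out replicate 2 of Ryk cKO at 7 d took it to −2.14 (edgeR adjusted p 0.0640), because the other mouse of that group, a shallow library, has 0 Gpr37 UMIs there. Alternatives other than leaving out mice gave −0.77 to −1.13 with edgeR adjusted p from 0.0765 to 0.990.

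For Ryk itself, Cluster 5 had 138.8 and 44.3 CPM in uninjured WT mice and 71.8 CPM in uninjured Ryk cKO, and after injury 46.9 to 85.9 CPM in WT and 0 to 142 CPM in Ryk cKO. Reads of this method lie near the 3′ end and may fall outside the deleted part, so these overlapping values check nothing about the deletion.

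The study's own unit, log-normalised UMIs averaged over cells, was read with the cells of a group's mice pooled, so it has no spread over mice. In Cluster 10 Psap averaged 1.53 in WT and 1.58 in Ryk cKO before injury (median 693 and 807.5 UMIs per cell), 1.70 and 1.52 at 1 d (641 and 928 UMIs), 2.56 and 2.86 at 7 d (774 and 1016 UMIs) and 2.31 and 2.38 at 14 d (5254 and 3028 UMIs). In Cluster 6 it averaged 2.58 in WT and 2.12 in Ryk cKO before injury (2608 and 2871.5 UMIs), 1.57 and 1.74 at 1 d (407 and 627 UMIs), 1.84 and 2.16 at 7 d (501 and 572 UMIs) and 2.65 and 2.82 at 14 d (5576 and 10536 UMIs). In Cluster 5 the averages were 1.35 and 1.11 before injury (1277 and 1110.0 UMIs), 0.85 and 1.42 at 1 d (399 and 1696 UMIs), 1.29 and 1.69 at 7 d (726 and 1465 UMIs) and 1.83 and 1.71 at 14 d (2005 and 1675 UMIs). Depth differs several-fold between some of these groups, and its part in these averages was not tested. Gpr37l1 in Cluster 7 averaged 2.54 in WT and 2.15 in Ryk cKO before injury and 1.61 and 1.58 at 14 d, and Gpr37 in Cluster 4 averaged 1.25 and 0.50 before injury (1852 and 1347.5 UMIs) and 0.39 and 0.56 at 14 d.

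Lists of genes around the ligand and receptors were read in the same comparisons. Of lysosomal lipid enzymes that work with saposins or beside them, 16 of 17 symbols were found, and 13 of those 16 had their highest mean in Clusters 6, 10, 12 or 16, as had 24.8% of the 6503 genes compared. Of the genes for prosaposin sorting, uptake and cleavage 14 of 14 were found and 7 had their highest mean there. Of genes for Gi/o coupling and desensitisation 17 of 19 were found, with 6 there, and of receptor partners 13 of 14, with 2 there and 4 in Clusters 2, 5 and 7, where 14.2% of the 6503 genes were highest. Among the highest means of these lists were those of Npc2 (945 CPM in Cluster 10), Ctsd (10275 CPM in Cluster 10) and Ctsb (4661 CPM in Cluster 10), Gnai2 (1048 CPM in Cluster 1) and Rgs5 (4493 CPM in Cluster 9), and Slc1a2 (7132 CPM in Cluster 5) and Hspa5 (625 CPM in Cluster 14). The relatives of the receptors, Ednrb and Ednra, peaked in Cluster 5 (508 CPM) and in the pericytes of Cluster 9 (327 CPM), and Psapl1, the relative of the ligand, had at most 0.70 CPM, in Cluster 8.

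In Clusters 6 and 10 together edgeR called 0.129% of all genes after injury and 0.108% at 7 d. Beside these it called 0 of 16 enzymes after injury, with a median log2 change of 0.53 beside 0.09 over all genes. At 7 d it called 0 of 16 enzymes, with 0.84 beside 0.17. After injury the sorting list had 0 of 14 with a median of 0.25, the Gi/o list 0 of 12 with −0.07 and the partners 0 of 8 with 0.31. In Cluster 10 alone the median over all genes was 1.02 after injury and 1.27 at 7 d, and 0.545% and 0.707% of all genes were called. Beside it the enzymes had medians of 1.36 (0 of 15 called) and 1.84 (2 of 15), the sorting list 0.71 (1 of 14) and 0.91 (3 of 14), the Gi/o list 0.13 and 0.11 (0 of 10 each) and the partners 1.37 and 0.80 (0 of 9 each). At 14 d in Cluster 10, where 0.707% of all genes were called, the sorting list had 2 of 14 called with a median of 0.89 beside 1.33. At 1 d, where 0.147% of all genes were called, the partners had 1 of 9 with 0.56 beside 0.40. In Cluster 5 after injury, where all genes had a median of −0.25, edgeR called 0 in each list, with medians of −0.51 for 13 enzymes, −0.19 for 13 sorting genes, −0.32 for 13 Gi/o genes, −0.22 for 9 partners and −0.23 for Ednra and Ednrb. In Clusters 4 and 8, beside −0.02, they were 0.00, 0.15, 0.22, 0.13 and −0.75, the last from 1 gene tested, and edgeR again called 0.

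The list genes called in these comparisons all came from Cluster 10 and all rose. After injury Ctsb rose by 1.93 (95% interval 1.08 to 2.79, edgeR adjusted p 0.0272), or 1.45 less the median of genes at 100 CPM or more, from 1317 to 1751 CPM in uninjured mice to 3225 to 8143 CPM, with 11 of 11 injured mice above all uninjured ones. At 1 d Hspa5 rose by 2.51 (1.45 to 3.58, edgeR adjusted p 0.0262), or 2.23 less that median, from 73.2 to 428 CPM to 1025 to 1711 CPM in 3 of 3 mice. At 7 d 4 of 4 mice lay above the uninjured ones for each called gene: Ctsb rose by 2.31 (1.39 to 3.24, edgeR adjusted p 0.0081), Ctsa by 2.25 (1.18 to 3.32, adjusted p 0.0379), Ctsd by 2.19 (1.23 to 3.14, adjusted p 0.0197), Grn by 1.86 (0.93 to 2.79, adjusted p 0.0474) and Lipa by 3.48 (1.85 to 5.12, adjusted p 0.0339). Less the median these came to 1.69, 1.63, 1.56, 1.24 and 2.86. Ctsd went from 3183 to 4796 CPM to 11465 to 21015 CPM, and Ctsa from 212 to 272 CPM to 551 to 1369 CPM, whereas Lipa had at most 1 UMI in an uninjured mouse, so the size of its change is poorly fixed. At 14 d Ctsb rose by 1.98 (1.07 to 2.89, edgeR adjusted p 0.0316) and Ctsd by 1.92 (0.98 to 2.86, adjusted p 0.0389), each in 4 of 4 mice. Less the median these came to 1.30 and 1.23.

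Each of those calls was lost when certain mice were left out, uninjured WT replicate 2 in every case. Ctsb after injury was not called without uninjured WT replicate 1 or 2, uninjured Ryk cKO replicate 2, WT 7 d replicate 1 or Ryk cKO 14 d replicate 1, at 1.92, 1.89, 2.01, 1.91 and 1.86. Hspa5 at 1 d was lost without uninjured WT replicate 2, at 2.16. For Ctsb at 7 d the mice were uninjured WT replicate 2 and Ryk cKO 7 d replicate 1, at 2.27 and 2.08. Ctsd at 7 d was lost without uninjured WT replicate 1 or 2, WT 7 d replicate 1 or Ryk cKO 7 d replicate 1, at 2.14, 2.18, 2.05 and 1.95, and Ctsa without the same mice, at 2.15, 2.29, 1.90 and 1.90. Lipa was lost without those mice or WT 7 d replicate 2, at 2.90, 6.08, 3.49, 3.29 and 3.47, the value without uninjured WT replicate 2, 6.08, being more than 1.5 times the reported change. Grn was lost without uninjured WT replicate 2, either replicate of WT 7 d, of Ryk cKO 7 d or of Ryk cKO 14 d, at 1.60, 1.81, 1.92, 1.73, 1.94, 1.84 and 1.85. At 14 d Ctsb was lost without either uninjured WT mouse or either Ryk cKO 14 d mouse, at 1.97, 1.93, 1.84 and 2.07, and Ctsd without these or either WT 7 d mouse, at 1.87, 1.90, 1.77, 2.00, 1.91 and 1.92. With the conditions of the cell list none of these was called, with values of 1.47 to 5.71, and without the 4 shallow libraries Ctsb at 14 d was called, at 2.05, the others were not, and Hspa5 at 1 d could not be fitted. Without TMM scaling Lipa, Ctsa and Grn were not called, at 3.26, 2.02 and 1.61. DESeq2 called all of them but Lipa, which it put at 3.13.

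Promoter sequences were looked at because Psap, Ctsd, Ctsa and Ctsb were alike over clusters and Ctsb, Ctsd and Ctsa were each called in Cluster 10 at 7 d. All 3 members matched an entry in the RefSeq table for GRCm38.p6, which gives 300 bases, 250 before to 50 after a start. Windows were searched on both strands for CACGTG, the core of sites bound by basic helix-loop-helix factors, and for TGAGTCA, the AP-1 motif, and these motifs were chosen after the sequences had been searched. Among all 32851 promoters listed, CACGTG is found in 2349 (7.15%) and TGAGTCA in 1709 (5.20%). The windows of Gpr37 and Gpr37l1 hold neither, and Ctsb has no entry. The Gpr37 window (chr6:25689931-25690230, minus strand) lies inside the gene as placed above and does not reach its end at 25690729. It therefore says nothing of the bases before that position. Below, capitals mark the matches: TGAGTCA in Psap (chr10:60277378-60277677, plus strand), and CACGTG at 2 places in Ctsd (chr7:142387778-142388077, minus strand) and at 2 in Ctsa (chr2:164833523-164833822, plus strand). Psap and Ctsa each have another entry (chr10:60284211-60284510 and chr2:164832622-164832921, plus strand) that holds neither motif. A match describes the letters and does not show that a factor binds there.
Psap: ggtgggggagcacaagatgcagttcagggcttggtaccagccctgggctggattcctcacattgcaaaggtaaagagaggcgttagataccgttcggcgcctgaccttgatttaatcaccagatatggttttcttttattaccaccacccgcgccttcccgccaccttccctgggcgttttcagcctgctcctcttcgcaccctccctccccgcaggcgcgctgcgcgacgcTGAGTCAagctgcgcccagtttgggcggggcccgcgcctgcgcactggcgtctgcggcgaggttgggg
Ctsd: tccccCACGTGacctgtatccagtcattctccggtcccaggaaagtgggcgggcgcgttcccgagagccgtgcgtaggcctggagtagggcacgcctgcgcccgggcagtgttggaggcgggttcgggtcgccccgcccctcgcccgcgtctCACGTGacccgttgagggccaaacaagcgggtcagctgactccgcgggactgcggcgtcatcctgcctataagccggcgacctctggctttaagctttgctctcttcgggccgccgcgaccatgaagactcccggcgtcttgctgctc
Ctsa: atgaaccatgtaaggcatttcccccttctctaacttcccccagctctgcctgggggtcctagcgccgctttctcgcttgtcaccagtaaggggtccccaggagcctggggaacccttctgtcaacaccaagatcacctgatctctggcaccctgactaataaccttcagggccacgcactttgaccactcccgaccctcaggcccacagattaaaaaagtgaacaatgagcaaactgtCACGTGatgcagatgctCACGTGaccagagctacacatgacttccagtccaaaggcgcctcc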

How the data were processed

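The authors aligned 10x Chromium 3′ v3.1 libraries to GRCm38 with Cell Ranger and deposited a table of UMI counts (unit: count) per gene and cell with clusters from Seurat and Harmony; its cells have at least 201 genes and at most 24.99% mitochondrial UMIs. Positions are from GENCODE M21. Here 18203 cells of 16 mice were summed per mouse and cell class, for mice with at least 50 cells in all and 10 in the class. WT 1 d replicate 2 was left out for its 1 cell. Genes were tested with edgeR 4.0.16 (filterByExpr, TMM, quasi-likelihood, 8 condition means, R 4.3.3) with p adjusted by Benjamini and Hochberg over all genes of a class and contrast, and called at an adjusted p under 0.05. The 95% intervals of log2 changes use the fit's own spread between mice, and those of shares cover counting error only. The code was checked on simulated data, with a criterion that was changed after its first run from a fixed count to relative criteria. Other work used Python 3.11.15, numpy 2.4.6, pandas 2.3.3, scipy 1.17.1 and matplotlib 3.10.9.

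The members and lists were chosen with earlier results of these data known. Genes named are the 3 members, list genes called in a described contrast (at most 4 per list and contrast, largest change first), otherwise the 2 of a list with the highest mean, Ednra and Ednrb, and the 5 genes most like each member; Psapl1 and Ryk were named as genes of interest by symbol. Pairing was checked, with pairs taken from the replicate number, which equals the batch given for the cells in all 16 mice: residuals of paired mice had a median correlation of 0.0961 in Cluster 5, 0.0464 in Clusters 6 and 10 and 0.251 in Clusters 4 and 8 (above 0.1 in 15 of 21 pairs of conditions). The replicate was tried as an alternative block only in some classes, those whose counts of called genes are given below under other settings. It was not part of the model, although it may matter in Clusters 4 and 8. Alternatives were DESeq2 1.42.0, no filter, at least 30 cells, the replicate block, the animal number series, cells thinned to 1000 UMIs (10053 cells remain), the conditions of the cell list, single clusters and each mouse left out. Chosen after seeing the data were no TMM scaling, leaving out 432 cells of shared barcodes and leaving out the 4 shallow libraries.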

Additional observations from a re-analysis of the deposited data

How the results depend on the processing

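Psap in Cluster 10 at 7 d and in neurons, and Gpr37l1 in Cluster 7, passed the threshold under some settings, as given above. Psap in Clusters 6 and 10 (injury) and Cluster 5 (genotype), Gpr37l1 in Cluster 5 and Gpr37 in Clusters 4 and 8 (each for injury and genotype) passed it under none of 158 settings, of which 142 kept the direction and 16 changed the sign. For every change below the cause was not tested. Psap in Clusters 6 and 10 after injury was positive in all, from 0.27 (Cluster 6 alone) to 0.84 (Cluster 10 alone). Psap by genotype in Cluster 5 was −0.11 with the conditions of the cell list, −0.030 in Clusters 2, 5 and 7 together, −0.033 in Cluster 7, and −0.059 without Ryk cKO 7 d replicate 2 to 0.31 without replicate 1. Gpr37l1 in Cluster 5 after injury was 0.40 with no TMM scaling and −0.60 without uninjured Ryk cKO replicate 2 to 0.080 without uninjured WT replicate 1, and by genotype it was 0.048 with thinned cells. Gpr37 in Clusters 4 and 8 after injury was −0.70 with thinned cells, −0.31 with the conditions of the cell list, −0.29 without the 4 shallow libraries and −0.10 without uninjured WT replicate 2 to 0.53 without replicate 1; by genotype it was −0.24 in Cluster 8 alone, 0.80 without the 4 shallow libraries and −0.20 without Ryk cKO 1 d replicate 1 to 0.50 without WT 1 d replicate 1. Of 204 settings of the 51 cluster levels, 194 moved by less than the spread between mice. The 10 others were Gpr37l1 in Cluster 14 as a mean over cells (33.6); with at least 30 cells Gpr37 in Cluster 17 (29.8), Gpr37l1 in Clusters 15 (78.7) and 17 (59.6) and Psap in Cluster 17 (342.7); and with thinned cells Gpr37 in Clusters 16 (31.7), 17 (51.3) and 9 (9.09) and Gpr37l1 in Clusters 8 (115) and 16 (72.9).

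Counts of genes called by edgeR moved more. With the animal number series as a covariate they were 34 in Cluster 5, 56 in Cluster 7, 32 in Clusters 6 and 10, 57 in Clusters 4 and 8, 58 in Cluster 10 and 430 in neurons after injury, 76 and 98 in Cluster 10 at 7 d and 14 d, and 5 in Cluster 7 and 2 in Cluster 10 by genotype. The conditions of the cell list gave 4 in Cluster 7, 3 in Clusters 6 and 10, 2 in Cluster 10 and 5 in neurons after injury, 2, 4 and 6 in Cluster 10 at 1 d, 7 d and 14 d, and 20 in Cluster 7 by genotype. DESeq2 gave 1 in Cluster 7, 71 in Clusters 6 and 10, 2 in Clusters 4 and 8 and 0 in neurons after injury, 39 in Cluster 10 at 1 d and 0 in Cluster 7 by genotype. No filter on low counts gave 1 in Cluster 5, 119 in Clusters 6 and 10, 65 in Clusters 4 and 8 and 21 in neurons after injury, 34, 74 and 100 in Cluster 10 at 1 d, 7 d and 14 d, and by genotype 4 in Cluster 7, 8 in Clusters 6 and 10, 7 in Clusters 4 and 8 and 4 in Cluster 10. Without TMM scaling Clusters 6 and 10 had 24 after injury and Cluster 10 had 17, 30 and 28 at 1 d, 7 d and 14 d. Without the 4 shallow libraries there were 7 in Cluster 7, 5 in Clusters 6 and 10, 1 in Clusters 4 and 8, 17 in Cluster 10 and 0 in neurons after injury, 14 in Cluster 10 at 7 d, and by genotype 3 in Cluster 7, 2 in Clusters 6 and 10 and 6 in Cluster 10. The replicate block for pairing gave 5 in Clusters 4 and 8 and 8 in neurons after injury and 5 in Cluster 7 and 1 in Cluster 10 by genotype, and it changed no call of a named gene. Thinned cells gave 1 in Clusters 6 and 10 and 0 in neurons after injury and 2 in Cluster 7 by genotype; at least 30 cells gave 0 in neurons after injury and 3 in Cluster 7 by genotype; leaving out shared barcodes gave 0 and 2 for the same pair.

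With each mouse left out in turn, counts after injury ran from 0 to 4 (without uninjured WT replicate 1) in Cluster 5, 2 (uninjured Ryk cKO replicate 2) to 58 (uninjured WT replicate 1) in Cluster 7, 5 (uninjured WT replicate 2) to 35 (Ryk cKO 7 d replicate 2) in Clusters 6 and 10, 0 to 1 (Ryk cKO 7 d replicate 2) in Clusters 4 and 8, 0 (uninjured WT replicate 2) to 50 (WT 14 d replicate 1) in Cluster 10 and 0 (Ryk cKO 7 d replicate 1) to 44 (Ryk cKO 1 d replicate 2) in neurons. In Cluster 10 they ran from 0 to 27 at 1 d, 9 to 70 at 7 d and 0 to 67 at 14 d, lowest each time without uninjured WT replicate 2 and highest without WT 14 d replicate 1, or at 14 d without Ryk cKO 1 d replicate 2. By genotype they ran from 0 (Ryk cKO 1 d replicate 2) to 7 (WT 14 d replicate 1) in Cluster 7 and 0 to 2 (WT 1 d replicate 1) in Cluster 10. In Cluster 10 the comparisons with uninjured mice could not be fitted with thinned cells or with at least 30 cells. The 1 d comparison could also not be fitted without the shallow libraries. A lone mouse in a group was assumed to vary like the other groups. Depth, 1 or 2 mice per group, clusters whose make-up may shift with injury, and 6 mice whose condition is named differently in the cell list limit all of these values.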
